A study of Homo sapiens with 18 samples.

Results

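Loss of GPS2 by genome editing and expression of a membrane-anchored AKT were set against each other in the same breast cancer cell line. The comparison used 9 of the 18 RNA-seq libraries of the study: 3 replicates of the GPS2 knockout pool KO1, 3 of the pool KO2 and 3 of myrAKT cells. Each pool was kept as its own group, and the pools were then averaged as KO. All cells derive from MDA-MB-231, a triple negative, mesenchymal-like breast cancer line, and were untreated. KO1 and KO2 were made separately with different sets of sgRNAs against exons 2 and 6 of GPS2, delivered with Cas9 by the lentiviral vector LentiCRISPRv2, and were held under puromycin and kept as heterogeneous pools, so that a pool may retain unedited cells. The myrAKT cells were made by retroviral transfer of pBABEpuro-myrFLAG-AKT, and how they were selected is not given in the sources used here. Parental cells without a modification (WT, 3 libraries) are quoted beside named genes, and the 6 libraries of KO cells treated with the AKT inhibitor MK2206 entered only the filter on low genes. The labels do not say whether replicates are separate cultures, so p-values measure the spread between these libraries, which may be technical.

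GPS2 is a subunit of the NCoR/SMRT corepressor complex and an inhibitor of the ubiquitin-conjugating enzyme UBC13. AKT is the kinase downstream of PI3K. It phosphorylates FOXO transcription factors, which keeps them out of the nucleus, and it feeds growth through mTORC1. The myristoyl anchor of myrAKT holds the kinase at the membrane, where it is active without an upstream signal. The comparison asks which transcripts differ between cells edited at GPS2 and cells that carry an active AKT.

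The 9 libraries held 30287210 to 39319910 reads assigned to genes. Of 57448 genes, 15587 reached 1 CPM (reads scaled to a common library size) in 3 or more of the 18 libraries and were tested. Markers of the line were present in every library, with VIM between 1521 and 1823 CPM and EGFR between 490 and 748 CPM. Of 3 receptor genes, ESR1 was at most 1.39 CPM and PGR at most 0.0523 CPM. The other, ERBB2, was not low, with 78.9 to 87.3 CPM in KO and 85.6 to 87.98 CPM in myrAKT. Immune markers (4 genes) summed to 0.542 to 1.04 CPM in KO and 0.514 to 1.07 CPM in myrAKT, with MS4A1 at 0 in every library. Endothelial markers (3 genes) summed to 2.35 to 6.04 CPM in KO and 21.2 to 23.7 CPM in myrAKT. PECAM1 alone had 1.54 to 4.19 CPM in KO and 19.9 to 22.6 CPM in myrAKT, and VWF had 0.246 to 0.52 CPM in KO and 0.705 to 1.00 CPM in myrAKT. CDH5 had 0.410 to 1.40 CPM in KO and 0.242 to 0.484 CPM in myrAKT. Fibroblast markers (4 genes) summed to 11.5 to 13.5 CPM in KO and 10.96 to 12.98 CPM in myrAKT, and COL1A1 made up most of both. The average distance between group means (root mean square of log2 differences over the genes) was 0.320 between KO1 and KO2, 0.741 between KO1 and myrAKT and 0.629 between KO2 and myrAKT. Between single libraries it was 0.195 to 0.309 within a group, 0.346 to 0.401 between KO1 and KO2 and 0.625 to 0.822 between KO and myrAKT.

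The targeted gene was examined first. GPS2 (ENSG00000132522, chr17:7311324-7315564, minus strand, hg38) had 4.50, 4.43 and 4.46 CPM in KO1, 5.87, 6.14 and 6.10 CPM in KO2 and 6.04, 6.17 and 4.54 CPM in myrAKT, beside 4.35 to 4.88 CPM in WT. KO and myrAKT overlapped, and the log2 difference KO minus myrAKT was −0.10 (standard error 0.0964, adjusted p = 0.3771, edgeR's quasi-likelihood test). Gene counts do not show whether a transcript carries an edit, so this level does not check the labels of the pools. The authors report that they checked the knockdown by western blot and by genomic PCR, which are not part of these counts. AKT1 (ENSG00000142208, chr14:104769349-104795751, minus strand) had 243, 233 and 220 CPM in myrAKT, 127 to 144 CPM over the 6 KO libraries and 134 to 136 CPM in WT. The difference KO minus myrAKT was −0.76 (edgeR, adjusted p = 1.345e-11), without overlap. The counts do not separate transcripts of the introduced AKT from those of the endogenous gene.

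A call required a fold change of 1.5 or more and an adjusted p no greater than 0.001. By this rule 1237 genes (7.94%) were higher in KO than in myrAKT and 1739 (11.2%) were lower. KO1 alone was higher in 1472 genes (9.44%) and lower in 1822 (11.7%), and KO2 alone was higher in 989 (6.35%) and lower in 1527 (9.8%). Between the pools 271 genes were higher in KO1 (1.74%) and 110 were lower (0.706%). The balance depended on the fold required. With no minimum fold 4112 genes were higher in KO and 3764 lower, whereas 75 of the called genes were at least 8-fold higher and 44 at least 8-fold lower. At 16-fold the numbers were 44 and 18. In 2889 of the called genes the 6 KO libraries did not overlap the 3 myrAKT libraries, and in 87 they did. Over all genes tested, KO lay above myrAKT without overlap in 4630 (29.7%) and below it in 4218 (27.1%). In the sentences below a value in parentheses after a gene is its log2 difference KO minus myrAKT.

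**Figure D1:**
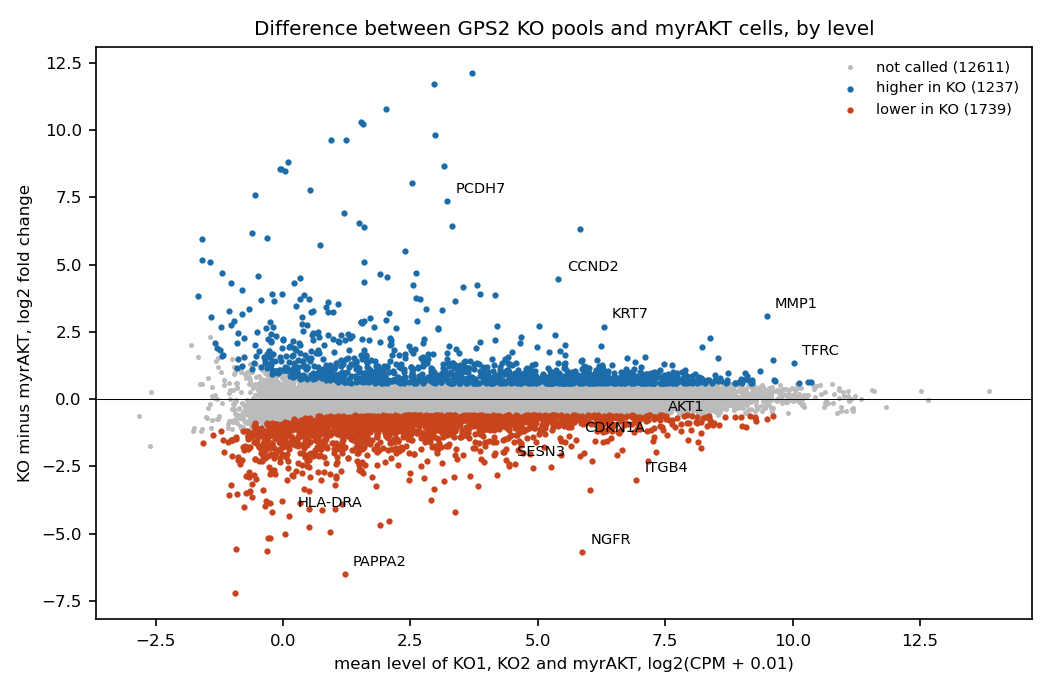
Each point is one of 15587 genes, by its mean level over KO1, KO2 and myrAKT as log2(CPM + 0.01) on the x axis and the fitted log2 fold change KO minus myrAKT on the y axis, blue for the 1237 genes called higher in KO, red for the 1739 called lower and grey for the rest. The highest points are genes with at most a few counts in myrAKT, whose fitted size depends on a prior and is not a measured fold.

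The genes with the largest differences in favour of KO had few or no counts in myrAKT and were present in the parental line. CCL2 (ENSG00000108691, chr17:34255274-34257208, plus strand), the chemokine that draws monocytes, had 29.4, 28.0 and 37.4 CPM in KO1, 9.12, 6.73 and 6.88 CPM in KO2, 13.7 to 14.9 CPM in WT and no count in any myrAKT library. With 3 counts in each myrAKT library as the limit that a count of 0 allows, CCL2 was at least 356.5-fold higher in KO1 and at least 85.5-fold higher in KO2. Intervals and limits of this kind cover counting error only. NRK, which encodes the Nik-related kinase, had 9.32 to 13.0 CPM in the KO libraries, 2.84 to 3.15 CPM in WT and no count in myrAKT, at least 122.0-fold higher by the pool with the lower mean.

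By the same bound SLITRK4, a transmembrane protein of neurons, was at least 69.1-fold higher in KO1 and 31.5-fold in KO2, and PIWIL1, a germline protein that binds piRNAs, at least 63.9-fold and 15.2-fold. In the pool with the lower mean the antisense transcript KAZN-AS1 was at least 45.0-fold higher and NALF2, an auxiliary factor of the NALCN channel, at least 23.6-fold. SLITRK4 had 5.61 to 6.93 CPM in KO1, 2.59 to 2.98 CPM in KO2 and 8.71 to 9.54 CPM in WT, and PIWIL1 had 5.18 to 6.21 CPM, 1.20 to 1.48 CPM and 6.55 to 7.49 CPM in that order, so that both pools lay below WT in these genes while myrAKT had no count. RFPL4AL1 was at least 67.8-fold higher in the pool with the lower mean, and its near-identical copy RFPL4A had 1 count over the myrAKT libraries (ratio 1206, interval 216 to 47658 by counting error at 95%), so the split of reads between these copies is uncertain. STXBP6, a regulator of vesicle fusion, had 3 counts in myrAKT (ratio 458, interval 157 to 2224), and GYPC, the membrane protein glycophorin C, had 3 (ratio 292, interval 99.9 to 1419).

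Each of these 10 genes had at least 1.74 CPM in every WT library. Over all genes, 13 had no count in any myrAKT library and a mean of at least 1 CPM in KO, and 10 of them had a mean of at least 1 CPM in WT too. The reverse, no count in any KO library and at least 1 CPM in myrAKT, held for 0 genes. It asks for zeros in 6 libraries instead of 3.

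**Figure D2:**
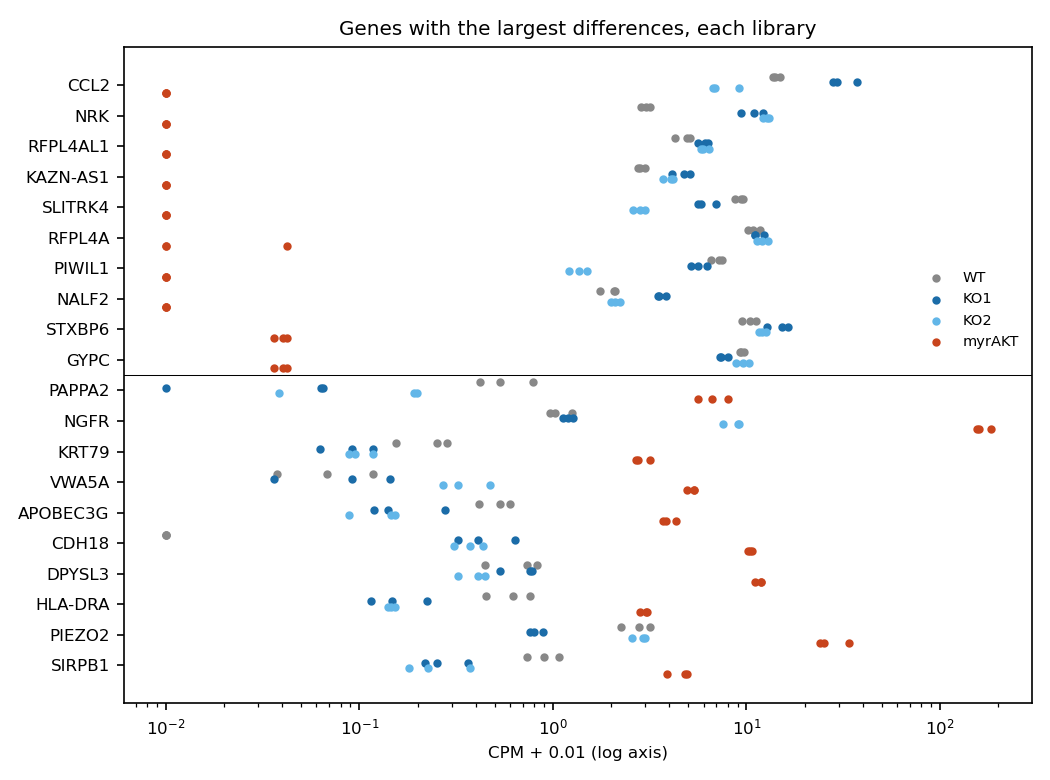
CPM + 0.01 (log axis) of the 10 genes with the largest differences in each direction, 1 dot per library and 3 libraries per group (WT, KO1, KO2, myrAKT). In the genes higher in KO the myrAKT dots lie at or near 0 and WT lies on the side of the KO pools, and in the genes lower in KO the myrAKT dots lie above those of every other group.

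Among the genes lower in KO, the leading members were high in myrAKT and low in WT as well. NGFR (ENSG00000064300, chr17:49495293-49515008, plus strand), the p75 neurotrophin receptor, had 1.26, 1.18 and 1.12 CPM in KO1, 7.53, 9.07 and 9.13 CPM in KO2, 0.960 to 1.24 CPM in WT and 183, 158 and 155 CPM in myrAKT. Its difference KO minus myrAKT was −5.69 (standard error 0.0671, edgeR, adjusted p = 2.765e-18), and KO2 lay above KO1. PAPPA2, a protease that cleaves IGF-binding proteins, had at most 0.190 CPM in KO, 0.411 to 0.782 CPM in WT and 5.62, 7.97 and 6.63 CPM in myrAKT (−6.51, adjusted p = 2.357e-12).

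The other leading genes lower in KO were the keratin KRT79 (−5.01), VWA5A (−4.93, chromosome 11, where the median of its 10 Mb bin was 0.518), the cytidine deaminase APOBEC3G (−4.76), the cadherin CDH18 (−4.69), the cytoskeletal regulator DPYSL3 (−4.51), the MHC class II chain HLA-DRA (−4.33), the mechanosensitive channel PIEZO2 (−4.20) and the receptor SIRPB1 (−4.10). The bins of CDH18, DPYSL3 and PIEZO2 had medians of −0.300, −0.202 and −0.366. CDH18 had no count in WT, 0.298 to 0.629 CPM in KO and 10.2 to 10.7 CPM in myrAKT. PIEZO2 had 0.752 to 0.875 CPM in KO1, 2.57 to 2.96 CPM in KO2, 2.23 to 3.18 CPM in WT and 24.02 to 33.7 CPM in myrAKT.

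A regional pattern touches several results below. Over all genes tested the median difference KO minus myrAKT was −0.002, and the chromosomes other than 11 had medians between −0.160 and 0.078. Chromosome 11 had a median of 0.397. Of its 866 genes tested 235 were called higher in KO (27.1%) and 33 lower (3.81%). All 12 of its 10 Mb bins had a median of at least 0.2.

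Library by library, the median of the chromosome 11 genes relative to the WT mean was −0.049 to −0.054 in KO1, −0.241 to −0.251 in KO2 and −0.517 to −0.522 in myrAKT. Between 100 and 130 Mb it was −0.023 to −0.061 in KO1, −0.405 to −0.454 in KO2 and −0.788 to −0.839 in myrAKT. Replicates thus lay close together, and KO2 lay between KO1 and myrAKT.

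Other shifts covered parts of chromosomes. Genes at 50 to 100 Mb of chromosome 5 had medians of −0.440 to −0.466 in myrAKT and −0.029 to 0.009 in the KO libraries. Genes at 50 to 90 Mb of chromosome 16 went the other way, with 0.52 to 0.550 in myrAKT, 0.210 to 0.277 in KO2 and 0.004 to 0.043 in KO1. Of 263 bins with at least 20 genes, 36 had a median difference KO minus myrAKT of at least 0.2 in size, 22 above 0 and 14 below. On chromosome 5 the bins at 10 to 20 Mb (−0.3) and 140 to 150 Mb (−0.202) were below 0. Of the 36, 12 were on chromosome 11, 11 on chromosome 5, 4 on chromosome 16 and 2 each on chromosomes 8 and 18. Without these 5 chromosomes, which were chosen after their medians were seen, 804 of 12507 genes were higher in KO (6.43%) and 1413 lower (11.3%). Several lists below are also given without them, and many of the named genes that lie in them are given with their chromosome or the median of their bin. The part of these regions in a single gene's difference was not tested.

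**Figure D3:**
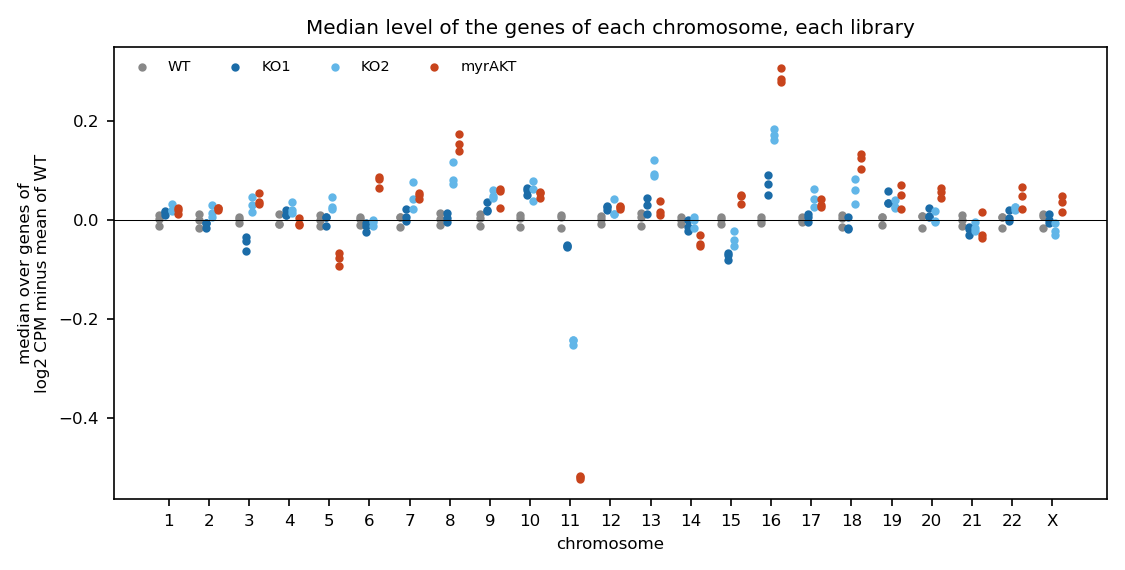
Median over the tested genes of each chromosome (x axis) of log2 CPM minus the mean of the WT libraries (y axis), 1 dot per library and 3 libraries per group. On chromosome 11 the myrAKT libraries lie at −0.517 to −0.522, the KO2 libraries at −0.241 to −0.251 and the KO1 libraries at −0.049 to −0.054.

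FOXO factors and their targets, which active AKT is known to hold down, were mostly lower in the knockout pools than in myrAKT cells where they were called. Of 37 members tested 16 (43.2%) were lower in KO and 1 was higher, with a median of −0.41. Against WT the list had a median of −0.38 in KO and −0.05 in myrAKT, where all genes tested had 0.01 and 0.04. Both of these contrasts share the WT libraries. FBXO32, a ubiquitin ligase of muscle atrophy and a classical FOXO target, had 9.83 to 11.2 CPM in the 6 KO libraries, 29.6 to 34.9 CPM in WT and 37.4, 42.8 and 40.7 CPM in myrAKT. Its difference was −1.97 (edgeR, adjusted p = 2.408e-14), with −1.65 between KO and WT and 0.31 between myrAKT and WT.

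The stress sensor SESN3 had the largest difference of the list. It had 5.28, 5.58 and 6.10 CPM in KO1, 13.5, 13.9 and 12.5 CPM in KO2, 5.65 to 6.58 CPM in WT and 44.6, 46.6 and 46.6 CPM in myrAKT (−2.40, edgeR, adjusted p = 5.415e-16). The gene lies on chromosome 11, where the median of its bin had the opposite sign (0.262). PDK4, a kinase that inhibits pyruvate dehydrogenase, was also lower in KO (−1.91), as were CDKN1A, the CDK inhibitor p21 (−1.51), FOXO4 itself (−1.247) and the cyclin CCNG2 (−1.15). CDKN1A had 29.9 to 37.0 CPM in KO, 51.9 to 58.5 CPM in WT and 90.95 to 99.9 CPM in myrAKT, without overlap. S1PR1, a receptor for sphingosine-1-phosphate, was the member that was higher in KO (1.41).

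The factors FOXO1 (−0.26) and FOXO3 (0.20) and the insulin receptor substrate IRS2 (0.21) were not called. Without chromosomes 5, 8, 11, 16 and 18, 10 of 29 members were lower and 1 was higher, and the median was −0.10. When each fold was tested against 1.5 itself, 10 members were lower, beside 791 of all 15587 genes tested.

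In the core of PI3K, AKT and mTOR 3 of 29 members (10.3%) were higher in KO and 2 (6.9%) were lower, against 7.94% and 11.2% of all genes tested. INPP4B, a phosphatase that acts on lipid products of PI3K, had 95.3 to 105 CPM in KO, 93.6 to 96.6 CPM in WT and 44.8, 52.3 and 47.2 CPM in myrAKT (1.06, edgeR, adjusted p = 2.832e-12). DEPTOR, an inhibitor of mTOR, was lower in KO (−1.14), as was AKT1, and MLST8 (0.61), a subunit of the mTOR complexes, and PHLPP1 (0.72), a phosphatase of AKT, were higher. AKT2 (0.21) and PIK3CA (−0.15) were not called. Of 15 members of the GPS2 corepressor complex and UBC13 partners, 0 were called higher and 0 lower.

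Receptor kinases and adaptors, the inputs of the pathway, had 5 higher (15.2%) and 6 lower (18.2%) members of 33. Of all genes tested 7.94% were higher and 11.2% lower. Besides NGFR, the lower included the collagen receptor DDR1 (−1.05) and ERBB3 (−0.64), which was called in KO2 (−0.81) but not in KO1 (−0.46). FLT1, a VEGF receptor, had 1.504 to 2.08 CPM in KO1, 0.623 to 1.04 CPM in KO2 and 0.0969 to 0.392 CPM in myrAKT (2.25). The FLT1 call was lost with KO1 and KO2 as 1 group of 6. PDGFRB (1.15) and FGFR4 (1.31) were higher too, both on chromosome 5.

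Growth genes were, of all the lists examined, the one with the largest share of members in favour of the knockout pools. Of 64 tested MYC targets and ribosome biogenesis factors, 35 (54.7%) were higher in KO and 1 was lower, with a median of 0.61. The list had a median of 0.48 against WT in KO and −0.11 in myrAKT. KO1 had 39 higher members and KO2 had 28, and without the 5 chromosomes 28 of 51 were higher. When each fold was tested against 1.5 itself, 19 members were higher, beside 572 of all 15587 genes tested.

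TFRC (ENSG00000072274, chr3:196012511-196082153, minus strand), the transferrin receptor and a MYC target, had 1275 to 1349 CPM in the 6 KO libraries, 645 to 673 CPM in WT and 582, 481 and 496 CPM in myrAKT. The difference was 1.33 (standard error 0.0523, edgeR, adjusted p = 1.85e-12), with 1.00 between KO and WT and −0.34 between myrAKT and WT. NOP2, an rRNA methyltransferase, had 96.5 to 124 CPM in KO and 51.8 to 57.2 CPM in myrAKT (0.99). Other members higher in KO were NOP56 of the box C/D snoRNPs (0.75), the pseudouridine synthase DKC1 (0.81), nucleolin NCL (0.60), the RNA helicase DDX21 (0.75) and the polyamine enzymes ODC1 (0.87) and SRM (0.81). NCL was called in KO1 (0.65) but not in KO2 (0.54).

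MYC itself had 318 to 331 CPM in KO1, 218 to 241 CPM in KO2 and 119 to 144 CPM in myrAKT, a difference of 1.03. Against WT it differed by −0.04 in KO and by −1.07 in myrAKT. POLR3G, a subunit of RNA polymerase III, had 43.4 to 45.4 CPM in KO1, 29.9 to 33.7 CPM in KO2, 30.6 to 34.5 CPM in WT and 14.8 to 15.7 CPM in myrAKT (1.32, chromosome 5). The paralog MYCL was the member lower in KO (−1.45), at 0.228 to 0.752 CPM against 1.16 to 1.57 CPM.

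Promoter sequence was examined for what members of this list share beyond their levels. MYC binds the E-box CACGTG, and the 250 bases before the start of each gene in RefSeq (GRCh38.p14) were searched for it, the palindrome reading alike on both strands. A promoter was found for 11024 of 14526 tested symbols, and 8.67% of them held the motif. Of 55 promoters of the list 12 held it (21.8%), and of the 28 whose genes were called, 6 (21.4%). Among all genes called higher in KO the share was 9.83%, and among those called lower it was 6.13%. Windows around the motif are shown for the gene of a methyltransferase of ribosomal protein (PRMT3), spermidine synthase (SRM) and a U3 snoRNP protein (IMP4), each called higher in KO, with the E-box in capitals.
PRMT3, chr11:20387489-20387574, plus strand: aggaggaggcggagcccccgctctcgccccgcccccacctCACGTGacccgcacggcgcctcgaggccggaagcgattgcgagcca
SRM, chr1:11060172-11060257, minus strand: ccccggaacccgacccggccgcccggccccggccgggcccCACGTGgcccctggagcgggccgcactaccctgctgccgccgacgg
IMP4, chr2:130342654-130342739, plus strand: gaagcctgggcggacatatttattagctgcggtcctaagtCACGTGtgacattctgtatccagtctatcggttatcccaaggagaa

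The genes of these windows had no overlap between KO and myrAKT. PRMT3 had 39.4 to 52.4 CPM in KO and 21.5 to 23.7 CPM in myrAKT (1.00, chromosome 11), SRM had 109 to 130 CPM and 62.03 to 74.8 CPM (0.81), and IMP4 had 51.3 to 60.4 CPM and 32.5 to 39.9 CPM (0.62), which was called in KO1 (0.66) but not in KO2 (0.57). A match describes the letters and is no evidence of binding, and the E-box was also found in 8 of 33 promoters of the FOXO list (24.2%).

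The FOXO motif GTAAACA, searched on both strands in the same bases, was in 1.95% of all promoters and in 2 of 33 of the FOXO list (6.06%). Of the called FOXO genes TXNIP, which encodes an inhibitor of thioredoxin and of glucose uptake, held it, and its window is shown with the motif in capitals.
TXNIP, chr1:145996657-145996743, minus strand: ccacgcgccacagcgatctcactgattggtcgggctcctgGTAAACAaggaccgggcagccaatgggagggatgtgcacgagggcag

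TXNIP had 41.4 to 54.6 CPM in the KO libraries, 59.4, 101 and 76.6 CPM in myrAKT and 169 to 218 CPM in WT. The KO and myrAKT libraries did not overlap (−0.73, with −0.58 in KO1, which alone was not called, and −0.87 in KO2), and TXNIP was below WT in both settings, with −2.03 for KO minus WT and −1.30 for myrAKT minus WT.

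**Figure D4:**
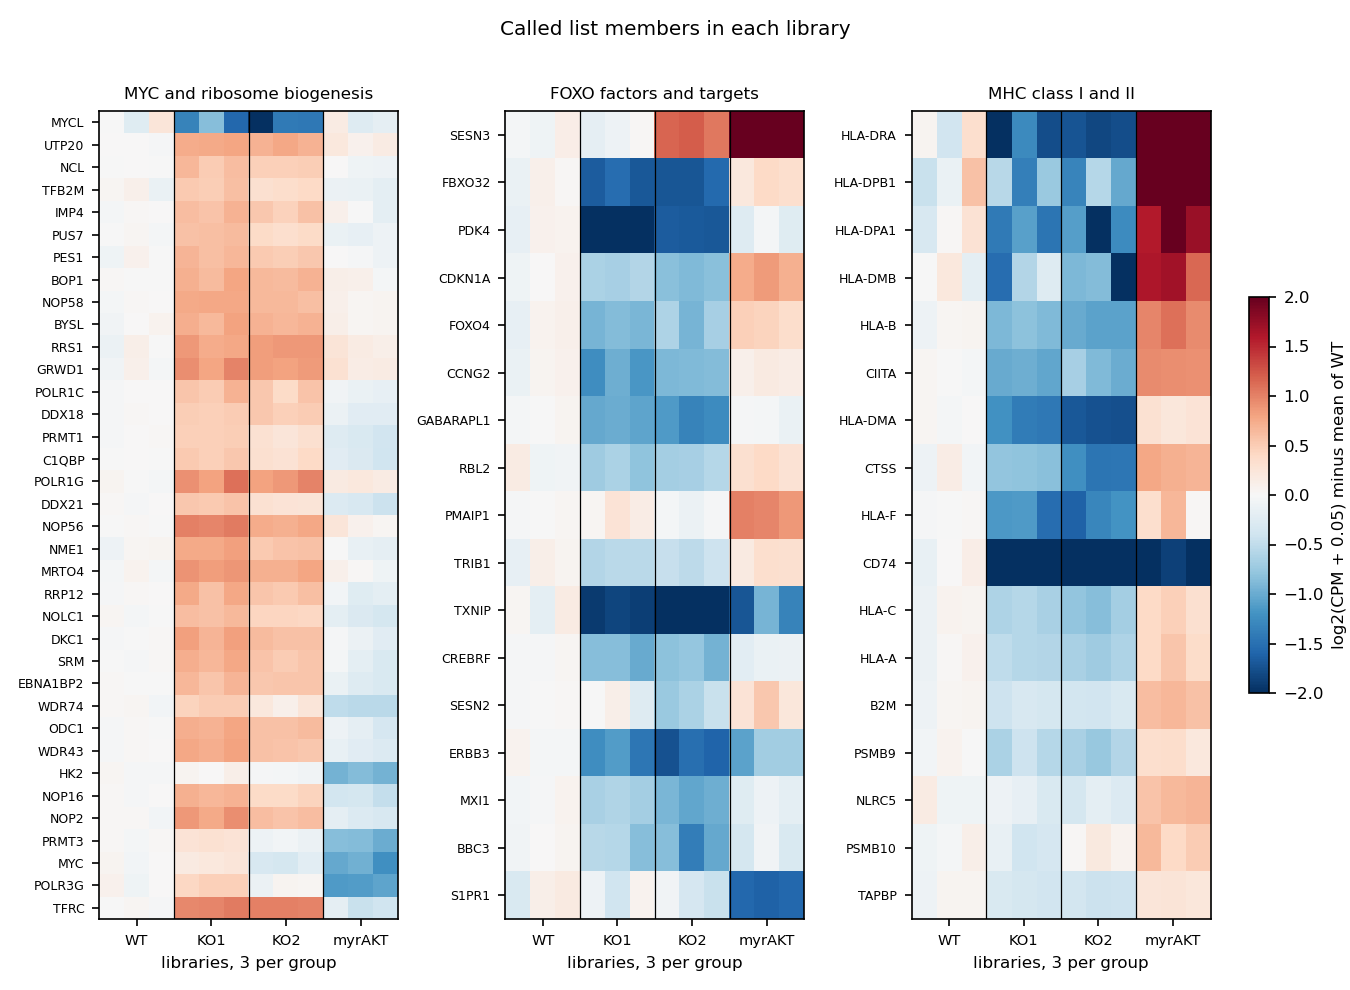
Called members of 3 gene lists (rows) in each of 12 libraries (columns, 3 per group), coloured by log2(CPM + 0.05) minus the mean of the WT libraries, red above and blue below, with the scale cut at 2 in either direction. The lists are MYC targets and ribosome biogenesis, FOXO factors and targets, and MHC class I and II with antigen processing (titled MHC class I and II), whose medians against WT are 0.48, −0.38 and −0.61 in KO and −0.11, −0.05 and 0.39 in myrAKT over all members tested.

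Genes of DNA synthesis had small differences. In the S phase list 7 of 43 members were higher in KO (16.3%, beside 7.94% of all genes tested) and 0 lower, with a median of 0.23. The count was 2 with upper-quartile normalization or with library totals and 4 without myrAKT replicate 3. RRM2, the inducible subunit of ribonucleotide reductase, had 474 to 546 CPM in KO, 228 to 258 CPM in WT and 291, 239 and 249 CPM in myrAKT (0.97, edgeR, adjusted p = 6.836e-11). UNG, which removes uracil from DNA, had 143 to 155 CPM in KO and 86.0 to 103 CPM in myrAKT (0.69). Of 61 replication licensing and fork genes 7 were higher (11.5%) and 1 was lower (1.64%), the lower being the polymerase subunit POLD4 (−0.71, chromosome 11). Without the 5 chromosomes 4 of 47 were higher and 0 were lower.

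The G2/M list had 2 higher members (3.7%) and 1 lower (1.85%) of 54, below the 7.94% and 11.2% of all genes tested. MKI67, the proliferation antigen, was higher in KO (0.64), a call that was lost under either of those other scalings, at 0.58. HMMR, a protein of the mitotic spindle, had 32.3 to 35.8 CPM in KO, 32.3 to 34.4 CPM in WT and 65.5 to 73.8 CPM in myrAKT (−1.01, chromosome 5).

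CCND2 had the largest difference among cyclins, CDKs and their inhibitors. Of 37 members 3 were higher and 3 lower (8.11% each), beside 7.94% and 11.2% of all genes tested. Cyclin D2 partners CDK4 and CDK6 in G1, and its gene (ENSG00000118971, chr12:4269771-4305353, plus strand) had 77.3, 84.0 and 77.4 CPM in KO1, 43.0, 44.9 and 45.9 CPM in KO2, 176 to 179 CPM in WT and 2.42, 3.36 and 2.35 CPM in myrAKT. It was higher in KO by 4.47 (edgeR, adjusted p = 2.168e-16), and both settings were below WT, with −1.57 for KO minus WT and −6.05 for myrAKT minus WT.

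Mitochondrial ribosomal proteins had 11 of 78 members higher in KO (14.1%, beside 7.94% of all genes tested) and 0 lower, with a median of 0.34. MRPL21 (0.90) was in a bin with a median of 0.412 and MRPS27 (0.82) in one of 0.483. Without the 5 chromosomes 6 of 61 members were higher and the median was 0.34. Among nuclear subunits of oxidative phosphorylation 4 of 77 were higher (5.19%, below the 7.94% of all genes tested). They included SDHD (0.86, bin median 0.613), NDUFS3 (0.78, bin median 0.469) and ATP5MG (0.77), all on chromosome 11. Without the 5 chromosomes 1 of 56 was higher. Of 82 cytosolic ribosomal proteins and of 13 mitochondrially encoded subunits, 0 were called in either direction.

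Of 40 histone genes 4 were higher (10%, beside 7.94% of all genes tested) and 0 lower, led by H3C13 (1.10) and H4C9 (0.82). Reads of histone copies cannot be assigned with certainty. Of 28 host genes of small nucleolar RNAs 6 were higher (21.4%) and 1 was lower (3.57%). SNHG1 had 108 to 113 CPM in KO1, 76.5 to 81.9 CPM in KO2 and 41.7 to 48.0 CPM in myrAKT (1.07, bin median 0.412). SNHG18 (2.01, chromosome 5) had 1.23 to 1.77 CPM, 0.171 to 0.542 CPM and 0.0906 to 0.235 CPM in that order. KO2 overlapped myrAKT and was not called (0.96), so the averaged call rested on KO1 (3.07), and it was lost without myrAKT replicate 1 (1.72) or replicate 2 (2.08).

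Antigen presentation was, of all the lists examined, the one with the largest share of members lower in the knockout pools. Of 23 genes tested, which are MHC class I and II chains and the genes of their peptide processing, loading and regulation, 17 (73.9%) were lower in KO and 0 were higher, with a median of −1.05, and the counts were the same in KO1 (17) and KO2 (17). Against WT the list had a median of −0.61 in KO and 0.39 in myrAKT. HLA-B had 74.5 to 88.7 CPM in KO, 147 to 163 CPM in WT and 309, 339 and 304 CPM in myrAKT (−1.97, edgeR, adjusted p = 2.924e-16). B2M, the light chain of class I, had 252 to 273 CPM in KO, 315 to 351 CPM in WT and 507 to 531 CPM in myrAKT (−0.98).

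CIITA, the activator of class II genes, had 2.02 to 2.62 CPM in KO, 4.10 to 4.32 CPM in WT and 7.96 to 8.10 CPM in myrAKT (−1.87), and HLA-DRA had 0.105 to 0.215 CPM, 0.439 to 0.755 CPM and 2.79 to 3.05 CPM in that order. HLA-DPB1, another class II chain, was lower in KO too (−3.99). CD74, the invariant chain, had 0.257 to 0.732 CPM in KO and 1.02 to 1.61 CPM in myrAKT (−1.62, chromosome 5) and was higher in WT, at 5.45 to 6.604 CPM. The immune marker sums were 0.542 to 1.04 CPM in KO and 0.514 to 1.07 CPM in myrAKT. Classical HLA genes are close copies of each other, so values of single members are uncertain. Without the 5 chromosomes 13 of 17 members were lower.

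Interferon-stimulated genes had 22 of 52 members lower in KO (42.3%) and 1 higher, with a median of −0.48. RSAD2, the antiviral protein viperin, had 1.15 to 1.36 CPM in KO1, 0.271 to 0.338 CPM in KO2, 0.841 to 1.56 CPM in WT and 3.81 to 5.09 CPM in myrAKT (−2.85). IFI44L had 0.875 to 1.33 CPM in KO, 2.26 to 2.55 CPM in WT and 5.55 to 7.13 CPM in myrAKT (−2.46). Others were OASL (−2.34), the exonuclease ISG20 (−1.999) and RIGI, a sensor of viral RNA (−1.16). IRF7, on chromosome 11, was the member that was higher (0.70). The pools and the myrAKT cells were made with different viral vectors, so the vector and the modification cannot be told apart.

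Of 25 chemokines and cytokines 4 were higher and 4 lower in KO (16% each, beside 7.94% and 11.2% of all genes tested). KO1 had 11 higher and 3 lower members, and KO2 had 2 higher and 9 lower. Of 30 NF-kB genes 1 was higher (3.33%) and 3 were lower (10%) in KO, with 8 and 2 in KO1 and 0 and 6 in KO2. Over all genes tested KO1 also had the larger share of higher calls, with 9.44% higher and 11.7% lower against 6.35% and 9.8% in KO2, and whether the lists differed between the pools beyond this was not tested. ICAM1, the adhesion molecule induced by NF-kB, had 39.1 to 49.8 CPM in KO1, 8.58 to 10.3 CPM in KO2, 8.82 to 10.9 CPM in myrAKT and 105 to 110 CPM in WT. The averaged call (1.08) rested on KO1 (2.17), since KO2 differed from myrAKT by −0.01.

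IL1B, the inflammatory cytokine, had 13.1 to 20.4 CPM in KO1, 3.76 to 4.99 CPM in KO2, 35.6 to 45.2 CPM in myrAKT and 62.4 to 72.0 CPM in WT (−2.25). CXCL1, a neutrophil chemokine, had 11.7 to 14.5 CPM in KO1, 2.70 to 3.19 CPM in KO2 and 2.48 to 3.33 CPM in myrAKT (1.18), so that KO2 overlapped myrAKT. IL18 had 67.4 to 70.2 CPM, 49.4 to 52.5 CPM and 18.6 to 20.1 CPM in that order (1.63, chromosome 11). BCL3, an atypical IkB protein, was lower in KO (−1.18). CXCL8, another neutrophil chemokine, had 57.9 to 78.9 CPM in KO1, 12.8 to 14.9 CPM in KO2, 80.4 to 97.9 CPM in WT and 20.2 to 24.02 CPM in myrAKT, and the cytokine IL6 had 2.82 to 4.43 CPM, 0.969 to 1.08 CPM, 3.33 to 3.99 CPM and 1.81 to 2.06 CPM in that order. Both were called higher than myrAKT in KO1 (1.60 and 1.00) and lower in KO2 (−0.63 and −0.92), and the average of the pools was not called (0.49 and 0.04).

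**Figure D5:**
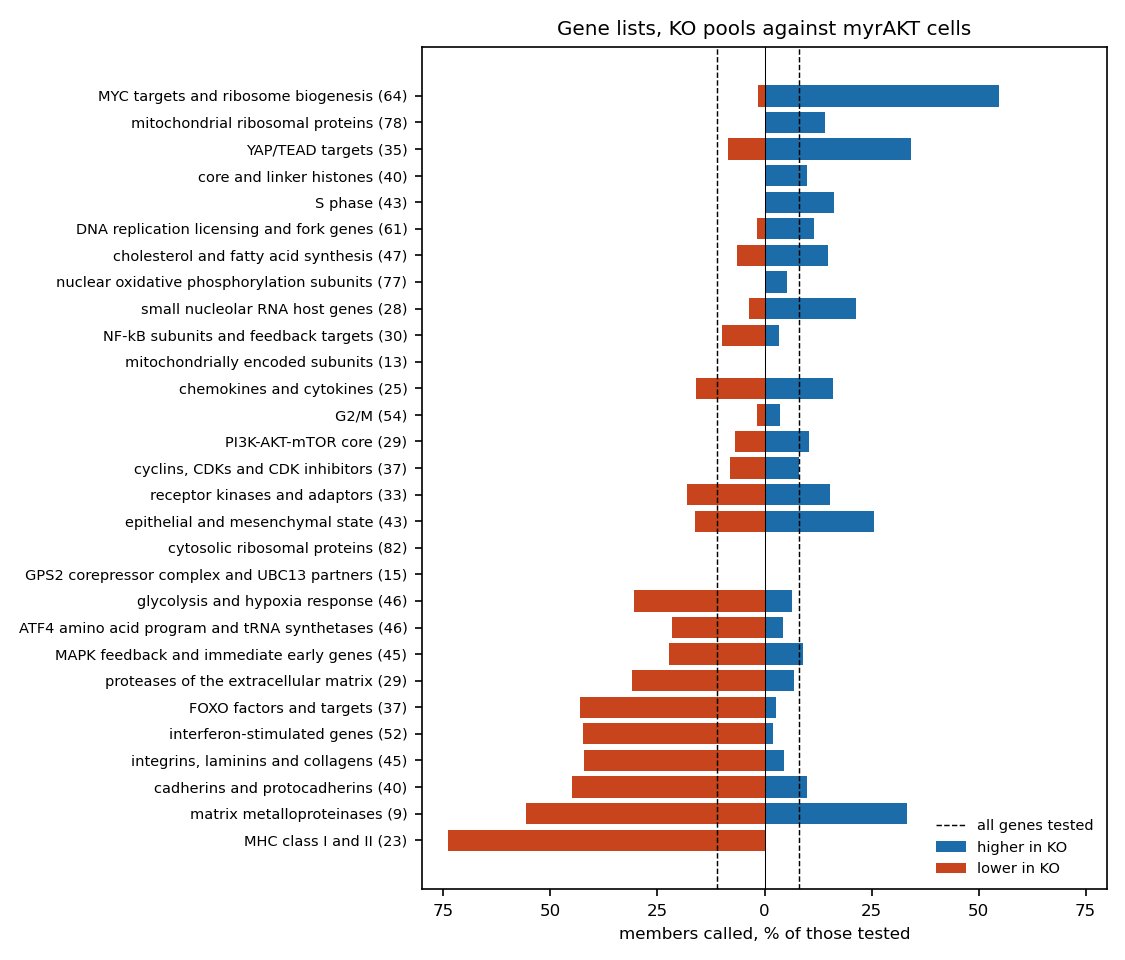
Members called higher (to the right) and lower (to the left) in KO against myrAKT as % of the members tested in each list, with dashed lines at the values for all genes tested (7.94% and 11.2%). The MYC and ribosome biogenesis list reaches 54.7% on the right, and the list of MHC and antigen processing genes reaches 73.9% on the left.

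Genes of cell attachment were mostly lower in KO where they were called. Of 45 integrins, laminins and collagens 19 (42.2%) were lower and 2 higher, with a median of −0.51. The list had a median of −0.48 in KO and 0.02 in myrAKT when each was set against WT. ITGB4 (ENSG00000132470, chr17:75721328-75757818, plus strand), the integrin chain of hemidesmosomes, had 24.3, 24.2 and 20.3 CPM in KO1, 56.1, 54.8 and 56.1 CPM in KO2, 73.5 to 79.7 CPM in WT and 259, 304 and 293 CPM in myrAKT. The difference was −3.00 (standard error 0.0503, edgeR, adjusted p = 1.54e-16), with KO below and myrAKT above WT.

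The laminin chains LAMA3 (−1.75) and LAMB3 (−0.70) were lower in KO as well. COL6A3 had 1.23 to 1.42 CPM in KO1, 2.22 to 3.30 CPM in KO2 and 17.5 to 21.8 CPM in myrAKT (−3.35), and its partner chains COL6A1 (−1.59) and COL6A2 (−1.17) were lower too. COL12A1 (1.57) and LAMA1 (1.06, chromosome 18) were the members that were higher.

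Of 9 matrix metalloproteinases tested 5 were lower (55.6%) and 3 were higher (33.3%), and all of the higher lie on chromosome 11. The interstitial collagenase MMP1 (ENSG00000196611, chr11:102789401-102798160, minus strand) had 1742, 1667 and 1685 CPM in KO1, 359, 366 and 374 CPM in KO2, 1566 to 1667 CPM in WT and 94.3, 92.6 and 91.03 CPM in myrAKT. KO1 lay near WT, KO2 lower and myrAKT lowest, and the difference was 3.09 (edgeR, adjusted p = 3.433e-18) in a bin with a median of 0.718. The stromelysin MMP3 had 10.6 to 12.8 CPM in KO1, 5.07 to 5.85 CPM in KO2, 3.74 to 6.31 CPM in WT and 1.02 to 1.16 CPM in myrAKT (2.89), and MMP10 had 1.45 to 1.75 CPM, 0.713 to 0.840 CPM, 1.81 to 2.61 CPM and 0.129 to 0.212 CPM in that order (2.67). The membrane-bound MMP14 had 371 to 427 CPM in KO and 808 to 845 CPM in myrAKT (−1.05).

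Other extracellular proteases and their inhibitors had 9 of 29 members lower (31%) and 2 higher (6.9%), beside 11.2% and 7.94% of all genes tested. TIMP1, an inhibitor of metalloproteinases, had 86.6 to 95.1 CPM in KO and 189 to 199 CPM in myrAKT (−1.10). SERPINB2, an inhibitor of plasminogen activators, had 1.505 to 1.88 CPM in KO1, 0.244 to 0.542 CPM in KO2 and 0.183 to 0.355 CPM in myrAKT (1.55). KO2 overlapped myrAKT and was not called (0.49), so the averaged call rested on KO1 (2.62), and it was lost without myrAKT replicate 1 (1.57) or replicate 3 (1.32).

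Of 40 cadherins and protocadherins 18 (45%) were lower and 4 were higher. The clustered protocadherins, whose copies share sequence, lie on chromosome 5, and without the 5 chromosomes 10 members were left, 2 lower and 3 higher. PCDH7 (ENSG00000169851, chr4:30720369-31146805, plus strand) had 17.1 to 18.1 CPM in KO1, 9.69 to 10.9 CPM in KO2, 15.4 to 16.9 CPM in WT and 0.121, 0.0969 and 0.0261 CPM in myrAKT, which rests on 8 counts over the myrAKT libraries (7.36, edgeR, adjusted p = 3.565e-15).

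Markers of epithelial and mesenchymal state went in both directions, with 11 of 43 higher in KO (25.6%) and 7 lower (16.3%). Of all genes tested 7.94% were higher and 11.2% lower. KRT7 (ENSG00000135480, chr12:52232520-52252186, plus strand), a keratin of simple epithelia, had 113 to 122 CPM in KO1, 98.0 to 103 CPM in KO2, 93.0 to 99.8 CPM in WT and 16.2, 18.6 and 15.9 CPM in myrAKT (2.69, edgeR, adjusted p = 2.924e-16). The adhesion molecule EPCAM had 8.48 to 9.99 CPM in KO and 3.17 to 3.29 CPM in myrAKT (1.49), and KRT19 (0.95), the desmosomal PKP2 (1.18) and the tight junction protein OCLN (0.98, chromosome 5) were higher too. Luminal markers (5 genes, EPCAM among them) summed to 222 to 295 CPM in KO and 157 to 165 CPM in myrAKT, and KRT18 made up most of both, with 208 to 280 CPM in KO and 150 to 157 CPM in myrAKT. CDH1 was at most 0.129 CPM. In bulk samples fewer cells of a type and less RNA per cell cannot be told apart.

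The matrix protein SPARC (−1.85, chromosome 5) and S100A4 (−1.64), which mark mesenchymal cells, were lower in KO. S100A4 had 10.5 to 12.4 CPM in KO1, 18.2 to 20.2 CPM in KO2, 44.5 to 48.7 CPM in myrAKT and 7.48 to 8.34 CPM in WT. The epithelial splicing factor ESRP1 was lower as well (−1.76, chromosome 8), and TGFB2, a cytokine that drives mesenchymal change, was higher (2.00).

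Targets of YAP and TEAD, the effectors of the Hippo pathway, had 12 of 35 members higher in KO (34.3%) and 3 lower, with a median of 0.27. F3, which encodes tissue factor, had 495 to 566 CPM in KO1, 363 to 381 CPM in KO2, 218 to 236 CPM in WT and 87.6 to 95.6 CPM in myrAKT (2.26, edgeR, adjusted p = 1.55e-15). ANKRD1 (1.47) was higher, as were YAP1 itself (1.29) and FJX1 (1.33), both on chromosome 11. Without the 5 chromosomes 9 of 28 members were higher and the median was 0.14.

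Of 47 lipid genes 7 were higher in KO (14.9%) and 3 lower (6.38%), beside 7.94% and 11.2% of all genes tested. The lower were targets of the nuclear receptor LXR. The cholesterol exporter ABCG1 had 1.48 to 2.17 CPM in KO, 7.80 to 9.35 CPM in WT and 10.1 to 14.4 CPM in myrAKT (−2.75), and ABCA1 had 7.80 to 10.3 CPM, 20.04 to 25.4 CPM and 32.1 to 39.5 CPM in that order (−2.02). The third was MYLIP (−0.90), which marks the LDL receptor for degradation. The higher included DHCR7 (1.02) and SC5D (0.91), enzymes of cholesterol synthesis that lie on chromosome 11, and the thiolase ACAT2 (0.86).

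Hypoxia and glycolysis genes had 14 of 46 members lower in KO (30.4%) and 3 higher. VEGFA, the growth factor of blood vessels, had 78.3 to 114 CPM in KO, 198 to 237 CPM in WT and 262 to 280 CPM in myrAKT (−1.54). CA9, a carbonic anhydrase induced by hypoxia, had at most 0.217 CPM in KO and 1.51 to 1.60 CPM in myrAKT (−3.44). DDIT4, an inhibitor of mTORC1 that the ATF4 list holds too, had 20.8 to 32.9 CPM in KO, 68.2 to 86.4 CPM in WT and 109 to 127 CPM in myrAKT (−2.12). HK2, the hexokinase of proliferating cells, was higher in KO (0.93), with 0.01 between KO and WT and −0.92 between myrAKT and WT.

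The ATF4 program of amino acid supply had 10 of 46 members lower in KO (21.7%) and 2 higher (4.35%). Of all genes tested 11.2% were lower and 7.94% higher. The neutral amino acid transporter SLC1A4 had 20.9 to 27.4 CPM in KO and 49.9 to 57.7 CPM in myrAKT (−1.13), and the serine enzyme PHGDH (−1.01) and asparagine synthetase ASNS (−0.89) were lower too, ASNS by the call in KO2 (−1.20) and not in KO1 (−0.57). Feedback and immediate early genes of MAPK signalling had 10 of 45 members lower (22.2%) and 4 higher (8.89%). DUSP6, a phosphatase of ERK, had 156 to 203 CPM in KO and 326 to 331 CPM in myrAKT (−0.93), and the transcription factor KLF9 was lower too (−1.88). KLF5 (1.79), the ligand AREG (0.93) and the phosphatases DUSP8 (1.82, bin median 0.320) and DUSP1 (1.11, chromosome 5) were higher. AREG and DUSP8 passed the call in KO1 (1.56 and 2.496) but not in KO2 (0.31 and 1.14).

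Of the genes called in KO against myrAKT 245 were also called between KO1 and KO2, so that their averaged value covers different sizes in the pools. The next count covers genes with a symbol and a mean of at least 100 scaled counts in a group. In 41 of these that were called between the pools, all 3 myrAKT libraries lay between KO1 and KO2. KO1 was the higher in 34 of the 41. Over all genes called between the pools, 271 were higher in KO1 and 110 lower. The 3 of the 41 with the largest difference between the pools are described. PRDM9, a histone methyltransferase of meiosis, had 2.90 to 3.03 CPM in KO1, 1.03 to 1.23 CPM in myrAKT and 0.0813 to 0.314 CPM in KO2. ULK2, a kinase that starts autophagy, had 2.98 to 3.95 CPM, 0.937 to 1.19 CPM and 0.461 to 0.684 CPM in that order, and the complement protein C3 had 2.19 to 3.17 CPM, 1.15 to 1.59 CPM and 0.371 to 0.52 CPM. Averaged, these genes had log2 differences of −0.55, 0.37 and −0.32 from myrAKT, and none of them was called by edgeR (adjusted p = 0.03547, 0.09029 and 0.1578).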

How the data were processed

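Whole-transcriptome libraries were made by the authors from total RNA of MDA-MB-231 cells with ribosomal RNA depletion, and the deposited table holds raw counts of reads per Ensembl gene. Per the submitters' processing notes, FastQC, Trim Galore, HISAT2, featureCounts and MultiQC were used with hg38. Versions, the gene annotation, strand and the treatment of reads that overlap several genes are not given in the sources used here, so overlapping and near-identical genes are uncertain. The study's methods name DESeq2, which was run here as an alternative.

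Genes that reached 1 CPM in 3 or more of the 18 libraries were kept. Counts of the KO1, KO2 and myrAKT libraries were fitted with edgeR 4.0.16 in R 4.3.3 (TMM, quasi-likelihood test, Benjamini-Hochberg), with the contrast of the mean of KO1 and KO2 against myrAKT, and a call needed an adjusted p of at most 0.001 and 1.5-fold. Values against WT came from a fit of 12 libraries. CPM are TMM-scaled. Of 57448 gene IDs, 56948 had an entry in GENCODE 44, which gave coordinates and symbols. S phase and G2/M lists came from Seurat 5.3.0.

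On simulated counts of 15587 genes for KO against myrAKT, 63 of 67 genes changed 2-fold and 66 of 66 changed 4-fold were called. Of those changed 1.25-fold, below the 1.5-fold that a call needs, 0 of 67 were called, as were 0 unchanged genes. Changes went in both directions, were placed only in genes above a minimum mean count, and no regional shift was simulated. These rates therefore do not extend to genes near the filter or in shifted regions. Members and lists were chosen with earlier results of these data known. Named were GPS2 and AKT1, the 10 genes with the largest fold change in each direction among called genes with a symbol, a mean of at least 100 scaled counts in a group and no overlap of KO and myrAKT libraries, the 2 called members of each list with the largest fold change, and the 3 genes with the largest difference between pools with myrAKT between them. Other list members are named to say what a list holds. Alternatives were other scalings, filters, tools, designs, a replicate block and leaving out each library.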

Additional observations from a re-analysis of the deposited data

Results flagged for a closer look

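In 21 of the genes named by the fixed rule and in 8 other list members named above the difference from myrAKT differed between the 2 knockout pools, by the direct test of KO1 against KO2 (edgeR, adjusted p of at most 0.001 and 1.5-fold). In the 21, 417 of 433 alternative values kept direction and call, and 16 calls were lost, in 6 of the genes. Values are log2 differences KO1 minus KO2, each from 3 libraries a pool. Among the genes that lead in favour of KO, CCL2 was higher in KO1 by 2.06, PIWIL1 by 2.07 and SLITRK4 by 1.13. Of the cytokine and interferon genes, IL1B was higher in KO1 by 1.88, ICAM1 by 2.19 and RSAD2 by 2.04. MMP1 was higher in KO1 by 2.21, MMP3 by 1.13, SERPINB2 by 2.14, SNHG18 by 2.11, DUSP8 by 1.36, CCND2 by 0.83 and PCDH7 by 0.80. Of the other list members, CXCL1 was higher in KO1 by 2.13, AREG by 1.25 and MMP10 by 1.03, while SPARC (−0.89), PDK4 (−0.79) and S100A4 (−0.73) were lower. Also lower in KO1 than in KO2 were NGFR (−2.85), PIEZO2 (−1.81), ITGB4 (−1.28), SESN3 (−1.24) and COL6A3 (−0.99). PRDM9 (3.87), ULK2 (2.74) and C3 (2.69) were named because their pools differed with myrAKT between them, so the test and the opposite signs of their differences from myrAKT follow from that choice and are a description. CXCL8 (2.23) and IL6 (1.91), which were not chosen in this way, also had opposite signs in the pools.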

How the results depend on the processing

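Of 1515 alternative values of named genes in KO against myrAKT, 1494 kept direction and call. These include the settings with no minimum fold and with an adjusted p of 0.05, which only loosen the rule on the same fit. A gene already called could not change in them. The sign turned for PRDM9 (0.48) and C3 (0.24) with KO1 and KO2 as 1 group of 6, and 19 calls were lost, among them FLT1, IL1B, ICAM1 and DUSP8 in that setting. The genes higher and lower in KO were 1001 and 1946 with upper-quartile normalization and 1002 and 1988 with library totals. Tested against 1.5-fold itself they were 572 and 791 (KO1 704 and 780, KO2 394 and 629, KO1 against KO2 79 and 31), and with no minimum fold 4112 and 3764 (KO1 4009 and 3586, KO2 3528 and 3117, KO1 against KO2 801 and 609). Genes lower in KO1 than in KO2 numbered 185 with no filter beyond 1 count and 243 at an adjusted p of 0.05. Without chromosomes 5, 8, 11, 16 and 18, an alternative chosen after seeing the data, 804 genes were higher in KO and 924 in KO1. Leaving out 1 library gave 1138 to 1256 higher and 1547 to 1829 lower in KO, 1378 to 1492 and 1629 to 1919 in KO1, 920 to 1029 and 1325 to 1545 in KO2, and 204 to 297 and 81 to 121 between the pools. Replicate numbers did not pair the libraries: same-numbered libraries of different groups had correlations of −0.451 to 0.159, 2 of 9 above 0.1, and 2 of 9 libraries correlated best with their own number. With the number as a replicate block the counts were 1202 and 1696 (KO1 1440 and 1760, KO2 961 and 1469, KO1 against KO2 245 and 100). DESeq2 gave 1189 and 1744. Calls of genes near or below 1 CPM are limited by depth.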
